A study of Mus musculus with 3 samples.

Results

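The genes described are 10 protein folding genes, 8 of the endoplasmic reticulum (Calr, Canx, Hspa5, Hsp90b1, P4hb, Pdia3, Pdia4 and Pdia6) and 2 of the cytosol (Hspa8 and Hsp90ab1), out of 48795 gene identifiers counted. They were chosen by name from a list of folding genes, with earlier results of these data known. Ensembl identifiers were matched to symbols with GENCODE release M21 on GRCm38. RNA from polysomes, the mRNAs loaded with several ribosomes, was sequenced from mouse bone marrow cells of the wildtype genotype (WT, 2 libraries) and of the genotype Mat KO (1 library). By its title the series concerns rRNA modification, translation and the small nucleolar RNAs of the imprinted Dlk1-Gtl2 locus, and the labels name neither the deleted allele nor the strain, sex or age of the mice. Both groups received the same handling per the labels' protocols, 100 µg/ml of cycloheximide for 10 minutes and a linear gradient of 10% to 50% sucrose.

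Proteins bound for secretion, membranes or granules fold in the endoplasmic reticulum. The Hsp70 and Hsp90 proteins of that compartment hold unfolded chains, the lectin chaperones bind chains that carry glucose-trimmed sugars, and protein disulfide isomerases form and exchange disulfide bonds. When unfolded chains accumulate, the unfolded protein response raises many of these genes together, partly through a promoter sequence called the endoplasmic reticulum stress response element (ERSE). The cytosolic members Hspa8 and Hsp90ab1 are made in most cells without stress and take up chains as they leave the ribosome or mature. In marrow, cells that make granule proteins, antibodies or matrix rely on the endoplasmic reticulum members.

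The ERSE is shown because it is a sequence feature that several of the endoplasmic reticulum members share. It played no part in the choice by name, but it is known as an element of genes of this kind. Its presence in them is therefore no independent finding. RefSeq promoter windows on GRCm38.p6 matched 8 of the 10 genes, all but Hspa8 and Hsp90ab1. The 250 bases before each start were searched on both strands for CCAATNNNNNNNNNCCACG, and 5 of the 8 genes held it, with 6 matches in all. Among 32851 windows of the same length, 37 (0.113%) held a match. Each match is written 5′ to 3′ on its own strand, with the fixed letters of the motif in capitals:
Calr, chr8:84847075-84847093, plus strand: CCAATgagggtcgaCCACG
Canx, chr11:50325800-50325818, minus strand: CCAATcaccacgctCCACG
Hspa5, chr2:34772025-34772043, plus strand: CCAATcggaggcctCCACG
Hsp90b1, chr10:86705638-86705656, minus strand: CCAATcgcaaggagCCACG
Hsp90b1, chr10:86705533-86705551, plus strand: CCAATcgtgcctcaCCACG
Pdia6, chr12:17266491-17266509, plus strand: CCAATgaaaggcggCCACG
The nearest match to a start was that of Hspa5, whose last base lay 47 bases before it, and the farthest began 212 bases before the start of Hsp90b1. These are RefSeq starts, which can differ from the GENCODE gene bounds given below. The match of Hspa5 lies inside its GENCODE bounds, which begin at 34771970. The matches of Calr and the nearer one of Hsp90b1 lay on the strand opposite to the gene. P4hb, Pdia3 and Pdia4 held no match to these letters in their windows. A second form, ERSE-II (ATTGGNCCACG), and a heat shock element (GAANNTTCNNGAA), each searched on both strands, were found in 0.0304% and 0.466% of all windows and in none of the 8.

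**Figure D1:**
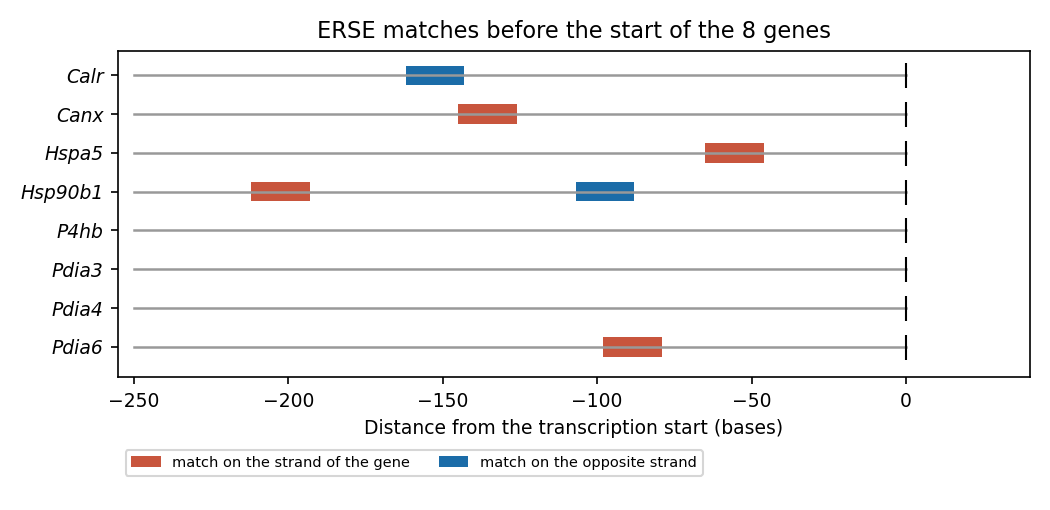
Positions of the ERSE matches in the 250 bases before the transcription start (x axis, bases; 0 is the start) of the 8 endoplasmic reticulum folding genes (rows). Red boxes are matches on the strand of the gene and blue boxes matches on the opposite strand; Calr, Canx, Hspa5 and Pdia6 have 1 match, Hsp90b1 has 2, and P4hb, Pdia3 and Pdia4 have none.

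The libraries differed widely in what they held, which bears on every value given here. Gene-assigned counts were 64547 to 239429, of which the 4 most counted features, Lars2 and annotated ribosomal RNA, took 67.6% to 99.0%. What remained for nuclear protein-coding genes without Lars2 was 18576 counts for WT 1, 1220 for WT 2 and 8021 for Mat KO, spread over 4206, 378 and 572 genes. A counted gene of this kind had a median of 2 counts for WT 1, 1 for WT 2 and 9.5 for Mat KO. Globins and neutrophil granule genes, which mark the labelled tissue, were counted in WT 1 alone, the former with 401, 0 and 0 counts over 4 of 4 genes and the latter with 440, 0 and 0 over 9 of 9. Liver genes had 475, 26 and 0 counts over 8 of 8 genes, skeletal muscle genes 240, 0 and 0 over 6 of 6, and pancreatic acinar genes 1, 14 and 798 over 12 of 12, with Ctrb1 at 0, 3 and 238. Plasma cell genes, which mark cells rich in endoplasmic reticulum, had 153, 0 and 1 counts over 5 of 7 genes. The part of these differences in the chaperone values was not tested. In bulk samples fewer cells of a type and less RNA per cell cannot be told apart, and without total RNA, which was not analysed here, neither can be told apart from fewer ribosomes per mRNA.

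The endoplasmic reticulum members had summed shares with overlapping intervals in the 3 libraries when set over nuclear protein-coding counts, and the division among the genes differed. They summed to 94 counts for WT 1, 8 for WT 2 and 40 for Mat KO. Per 10000 nuclear protein-coding counts other than those of Lars2, the unit used for all shares here, this was 50.6 for WT 1 (95% Wilson interval 41.4 to 61.9), 65.6 for WT 2 (33.3 to 129) and 49.9 for Mat KO (36.6 to 67.8). The 3 intervals overlap, and the Mat KO share was 0.985 of that of WT 1, with an exact interval of 0.663 to 1.44. WT 2 held 8 counts, so overlap with its interval does not show likeness. The sums also depended on the scale. Per 10000 of all gene-assigned counts they were 14.6, 0.334 and 3.18, and outside the 4 most counted features 45.0, 34.8 and 27.7. Without the most counted member of each library they were 33.4, 32.8 and 15.0. Intervals here cover counting error only and take each read as an independent molecule, since the reads carry no molecular identifiers. The counts were clumped, however. Among nuclear protein-coding genes at 0 in both WT libraries, 27 had 6 Mat KO counts, 2 had 7, 23 had 8 and 1 had 9. Of those counted in WT 1 alone, 124 had 3 counts and 568 had 4. Independent reads would not favour even counts in this way. All intervals are therefore too narrow, and limits of 3 counts too low, by an unknown amount. In the Mat KO library Calr and Hspa5 gave 39 of the 40 counts, or 97.5% (Wilson interval 87.1 to 99.6), against 32 of 94, or 34.0% (25.3 to 44.1), in WT 1 and 6 of 8, or 75.0% (40.9 to 92.9), in WT 2. These percentages of the summed count do not use the denominator. The pairing of Calr with Hspa5 was chosen after the counts were seen, so the percentages describe these libraries.

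**Figure D2:**
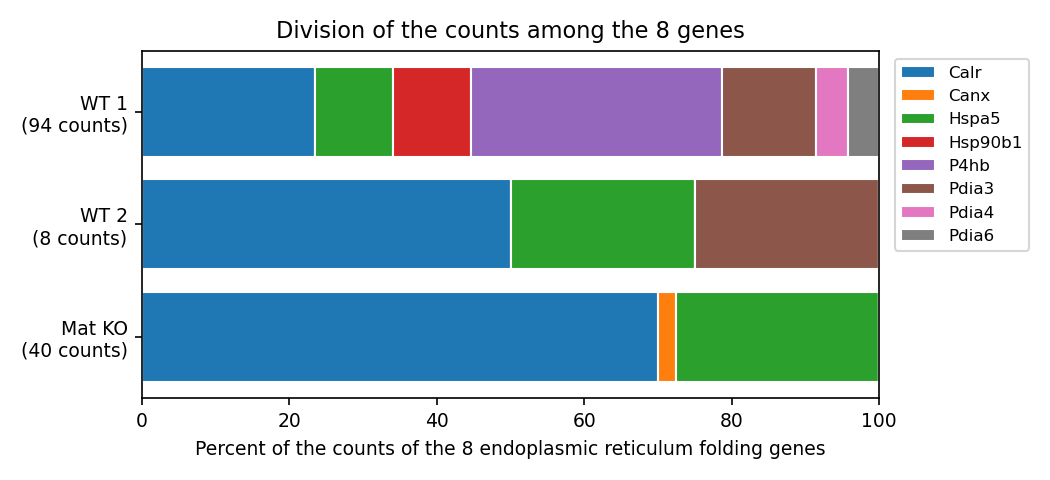
Division of the counts of the 8 endoplasmic reticulum folding genes among the genes (x axis, percent of the summed count) in each library (rows, summed count in brackets). WT 1 has counts in 7 of the genes with P4hb the largest at 34.0%, WT 2 in Calr, Hspa5 and Pdia3, and the Mat KO library is filled by Calr at 70.0% and Hspa5 at 27.5% with 1 count of Canx.

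Of the lectin chaperones, Calr was among the most counted members in every library and Canx was nearly uncounted. Calr (ENSMUSG00000003814, chromosome 8 from 84841850 to 84846934, minus strand) encodes calreticulin, the soluble lectin chaperone of the lumen, which also binds calcium. WT 1 held 22 of its counts, WT 2 held 4 and the Mat KO library 28, or shares of 11.8 (Wilson interval 7.82 to 17.9), 32.8 (12.8 to 84.0) and 34.9 (24.2 to 50.4). The Mat KO share thus lay above that of WT 1, 2.95-fold with an exact counting interval of 1.63 to 5.41, and beside that of WT 2, at 1.06-fold (0.372 to 4.18). These ratios compare single libraries and not the genotypes, and the ratio to WT 2 rests on 4 counts there. Their intervals are too narrow for clumped counts, so whether 2.95-fold exceeds counting error is not known. The order against WT 1 turned with the denominator: over all gene-assigned counts the Mat KO library lay at 0.653 of WT 1 for Calr. Canx (ENSMUSG00000020368, chromosome 11 from 50293961 to 50325673), which encodes calnexin, the membrane-bound relative of calreticulin, had 0, 0 and 1 counts. A count of 0 allows a share of up to 1.61 for WT 1, 24.6 for WT 2 and 3.74 for Mat KO, taking 3 counts as the limit in each library. The 1 count of Canx therefore shows no difference. Wilson upper limits of a count of 0 are higher, at 2.07, 31.4 and 4.79, so the limit of 3 counts is the tighter bound.

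Of the Hsp70 and Hsp90 members of the compartment, Hspa5 was counted in the Mat KO library and Hsp90b1 was not. Hspa5 (ENSMUSG00000026864, chromosome 2 from 34771970 to 34777547) encodes BiP, the lumenal Hsp70 that binds nascent chains and holds the stress sensors inactive. WT 1 held 10 of its counts, WT 2 held 2 and the Mat KO library 11, or shares of 5.38 (2.92 to 9.91), 16.4 (4.50 to 59.6) and 13.7 (7.66 to 24.5). The Mat KO value lay between the WT values, and its ratio to WT 1 of 2.55 had an interval of 0.982 to 6.69, which includes no difference. Over all gene-assigned counts the ratio was 0.564, and outside the 4 most counted features it was 1.59. Hsp90b1 (ENSMUSG00000020048, chromosome 10 from 86690209 to 86705509) encodes the lumenal Hsp90, needed for the folding of integrins and Toll-like receptors. It had as many counts as Hspa5 in WT 1, at 10, and 0 in both other libraries. At the share of WT 1, WT 2 would have held 0.657 counts and the Mat KO library 4.32. The 0 of WT 2 is therefore below what its depth can show. The interval of WT 1, 2.92 to 9.91, reaches below the 3.74 that a count of 0 allows in the Mat KO library, so no difference is shown there either. Of the 4032 exon bases of Hsp90b1, 415 are shared with 1810014B01Rik on the opposite strand, 133 with Gm25745 and 84 with Gm15344 on the same strand, all at 0 counts in every library. Whether reads were counted by strand is not given in the labels used here, and reads on shared stretches may have been recorded apart.

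All 4 disulfide isomerase genes were counted in WT 1 and none in the Mat KO library, and P4hb showed the widest gap of these. P4hb (ENSMUSG00000025130, chromosome 11 from 120560298 to 120573253) encodes protein disulfide isomerase, which is also a subunit of the collagen prolyl hydroxylase and of the lipid transfer complex that loads lipoproteins. With 32 counts it was the most counted member of WT 1, while WT 2 and the Mat KO library had 0. Its share in WT 1 was 17.2 (12.2 to 24.3), at which WT 2 would have held 2.1 counts and the Mat KO library 13.8. If reads were independent, the limit of 3 counts would put the Mat KO share at least 4.61-fold below the observed share of WT 1. That bound leaves out the counting error of WT 1, whose lower limit, 12.2, also lies above 3.74. Counts in the Mat KO library were clumped, with a median of 9.5 per counted gene, so the bound is not firm. The 0 of WT 2 was not informative at its depth. Pdia3 (ENSMUSG00000027248, chromosome 2 from 121413775 to 121438687) encodes the isomerase that works with calnexin and calreticulin and in the loading of class I antigen complexes. It had 12, 2 and 0 counts, or shares of 6.46 (3.70 to 11.3) in WT 1 and 16.4 (4.50 to 59.6) in WT 2, and was the sole isomerase counted in both WT libraries. The interval of WT 1 reaches just below the 3.74 allowed in the Mat KO library, so no difference from it is shown on this scale. Pdia4 (chromosome 6 from 47796141 to 47813430) and Pdia6 (chromosome 12 from 17266545 to 17284770), isomerases found in complexes with BiP, each had 4, 0 and 0 counts. Their share of 2.15 in WT 1 lies below the 3.74 that a count of 0 allows in the Mat KO library, so no difference was detectable on this scale. Over all gene-assigned counts, where the Mat KO library is deeper than WT 1, the same rule gave a share at least 2.60-fold lower for each. That bound rests on 4 counts in WT 1 and on reads being independent.

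Among the cytosolic members, Hspa8 was counted in every library and Hsp90ab1 in WT 1 alone. Hspa8 (ENSMUSG00000015656, chromosome 9 from 40800984 to 40810087) encodes the constitutive Hsp70, which binds chains at the ribosome and strips clathrin from vesicles. It had 22, 1 and 28 counts, the same as Calr for WT 1 and for Mat KO, or shares of 11.8 (7.82 to 17.9), 8.20 (1.45 to 46.3) and 34.9 (24.2 to 50.4). Its ratio between the Mat KO library and WT 1 was 2.95 (1.63 to 5.41) on this scale and 0.653 over all gene-assigned counts, so its order also turned with the denominator. Outside the 4 most counted features the ratio was 1.84. As for Calr, the interval is too narrow for clumped counts. The ratio to WT 2, 4.26, rests on 1 count there and had an interval of 0.704 to 174. Hsp90ab1 (ENSMUSG00000023944, chromosome 17 from 45567775 to 45573271) encodes the constitutive Hsp90, which completes the folding of kinases and steroid receptors. It had 19, 0 and 0 counts, a share of 10.2 (6.55 to 16.0) in WT 1, at which WT 2 would have held 1.25 counts and the Mat KO library 8.20. If reads were independent, the limit of 3 counts would put the Mat KO library at least 2.73-fold below the observed share of WT 1. The lower limit of WT 1, 6.55, also lies above 3.74. On the same assumption, the bounds over all gene-assigned counts were 20.8-fold for P4hb and 12.4-fold for Hsp90ab1. Clumped counts make the size of these bounds uncertain. With 0 counts no denominator can turn the direction of either gene. The summed cytosolic share was 22.1 for WT 1 (16.3 to 29.9), 8.20 for WT 2 (1.45 to 46.3) and 34.9 for Mat KO (24.2 to 50.4), with all intervals overlapping. Hspa8 has 13 near-identical copies in the annotation (at least 90% identity over at least 200 bases), 12 of them pseudogenes, and Hsp90ab1 has 2. The copies among the identifiers had 0 counts. Reads aligned to several places have a summary line of their own in the files, and how many of them came from these copies is not known, so values of these genes are uncertain. Stretches of 86, 86 and 90 exon bases of Hspa8 are also shared with the snoRNA genes Snord14c, Snord14d and Snord14e on the same strand, which had 0 counts.

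**Figure D3:**
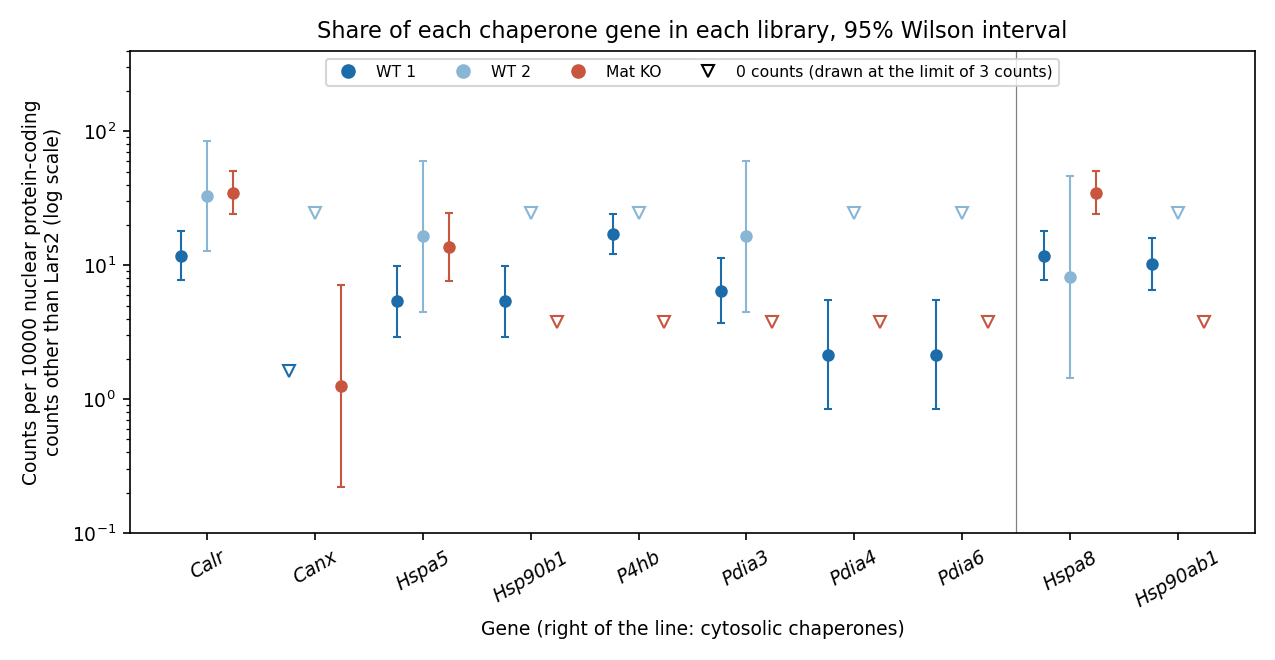
Share of each gene (x axis) in counts per 10000 nuclear protein-coding counts other than Lars2 (y axis, log scale) for each library (colours), with 95% Wilson intervals; open triangles stand for 0 counts and are drawn at the limit of 3 counts. Calr, Hspa5 and Hspa8 have counts in all 3 libraries, and the triangles of WT 2 at 24.6 lie above the WT 1 points of the genes it lacks.

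Within WT 1, the library with the most protein-coding counts, levels were compared per kilobase of annotated exon. P4hb had 11.2 counts per kilobase (exact Poisson interval 7.65 to 15.8), Calr 7.64 (4.79 to 11.6), Hsp90ab1 6.34 (3.81 to 9.89) and Hspa8 5.12 (3.21 to 7.74). Pdia3 followed with 3.82 counts per kilobase (1.98 to 6.68), then Hsp90b1 with 2.48 (1.19 to 4.56) and Hspa5 with 2.36 (1.13 to 4.35). Pdia4 at 1.67 (0.454 to 4.27), Pdia6 at 1.07 (0.291 to 2.73) and Canx at 0 (0 to 0.786) were lowest. The intervals of neighbours in this order overlap, which does not show that they are alike, and no pair of genes was tested. The interval of P4hb lies above those of Pdia3 and of every gene after it.

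The test across genes called no member. In edgeR's quasi-likelihood test of Mat KO against WT, 0 of 437 genes (0%) passed a false discovery rate of 0.05 and 0 had an unadjusted p under 0.05; DESeq2 also called 0, with 7 at an unadjusted p under 0.05. Calr, Hspa5, P4hb, Hspa8 and Hsp90ab1 passed the filter on low counts, and the other 5 members did not. Calr lay at a log2 fold change of -0.45 (its standard error 6.22, adjusted p = 0.993), Hspa5 -0.59 (6.15, 0.990) and Hspa8 -0.20 (6.26, 0.995). Relative to the median over all tested genes, -0.25, these were -0.20, -0.34 and 0.05, and other scalings moved that median. P4hb lay at -3.66 (standard error 4.53, adjusted p = 0.729) and Hsp90ab1 at -2.99 (4.13, 0.729), but both passed the filter through WT 1 alone, which fixed their sign. The median over the 5 tested members was -0.59, beside -0.25 over all genes tested, and supports nothing for the same reason. The fit leaves 1 residual degree of freedom and takes the spread of WT for the lone Mat KO library, and p-values measure the spread between the WT libraries, which may be technical. An exact permutation test over these libraries could not go below a two-sided p of 0.333, so none was run.

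The members were next set beside all genes by whether they were counted at all. WT 1 had counts for 9 of the 10 members, WT 2 for 4 and the Mat KO library for 4. Of all nuclear protein-coding genes, 19.4%, 1.74% and 2.64% had a count in these libraries. The members were chosen with earlier results of these data known, so this is no independent result. Calr, Hspa5 and Hspa8 had one in every library, as did 37 of 21681 nuclear protein-coding genes (0.171%). That background includes uncounted genes, and WT 2 counted 378 of them at all, so 0.171% is no comparison with well-counted genes. Among the 7 members with at least 10 counts in WT 1, 3 had a count in the Mat KO library and 4 had one in WT 2. Of the 379 nuclear protein-coding genes with at least 10 counts in WT 1, 13.7% were also counted with Mat KO and 15.0% with WT 2. A 0 in the Mat KO library was thus the usual state of a gene well counted in WT 1, and the zeros of Hsp90b1, P4hb, Pdia3 and Hsp90ab1 are shared with most such genes. The counts of Calr, Hspa5 and Hspa8 place them among 26 nuclear protein-coding genes with at least 10 counts in both WT 1 and the Mat KO library. These 26 are part of the 379 with at least 10 counts in WT 1. By rank of count among nuclear protein-coding genes, Calr and Hspa8 stood at 72 for WT 1 and 46 for Mat KO, and Hspa5 at 302 and 243.

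**Figure D4:**
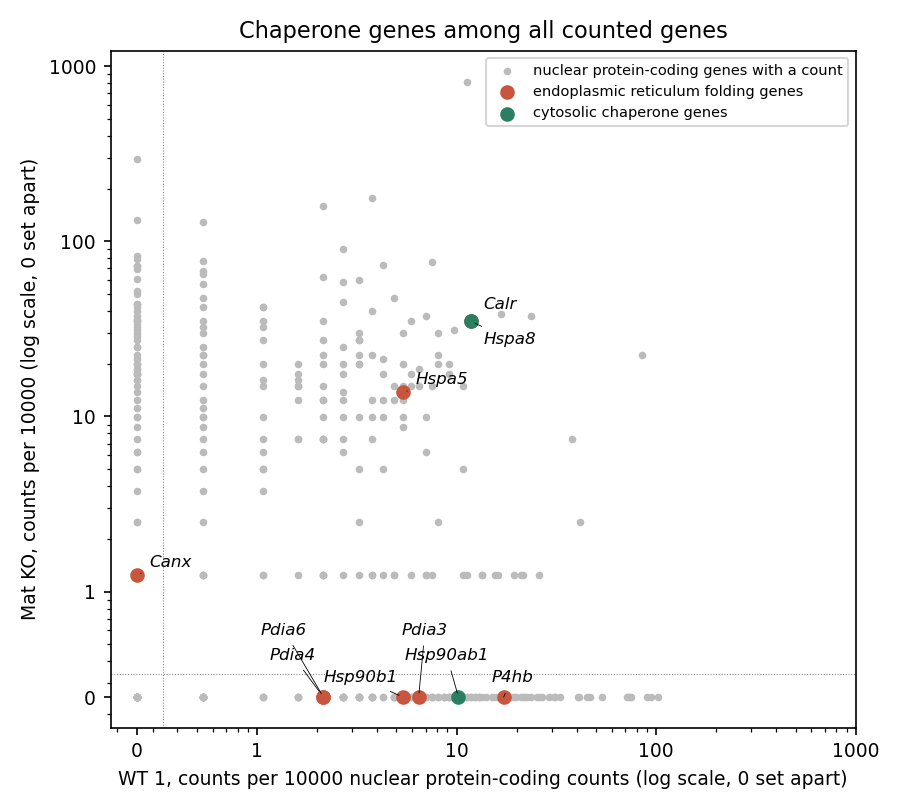
Each nuclear protein-coding gene with a count (grey points) by its counts per 10000 in WT 1 (x axis) and in the Mat KO library (y axis), both on log scales with 0 set apart beyond the dotted lines. The point of Calr is hidden under that of Hspa8, which has the same counts; these and Hspa5 lie among the genes counted in both libraries, and P4hb, Hsp90ab1, Pdia3, Hsp90b1, Pdia4 and Pdia6 lie on the line of 0 counts in the Mat KO library.

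Other genes of the folding pathways, 184 in 15 lists, had counts in each library. In WT 1, the library with the most protein-coding counts, 83 of the 184 had a count, or 45.1%, against 19.4% of all nuclear protein-coding genes, with 303 counts in sum. WT 2 had 16 counts over 10 genes, 5.43% against 1.74%, and the Mat KO library 40 counts over 7 genes, 3.80% against 2.64%. The lists were chosen with earlier results of these data known, so these percentages are no independent result. The summed share was 163 for WT 1 (146 to 182), 131 for WT 2 (80.9 to 212) and 49.9 for Mat KO (36.6 to 67.8), so the Mat KO interval lay below those of both WT libraries on this scale. These intervals too take reads as independent and are too narrow for clumped counts. Over all gene-assigned counts the order changed, with 46.9 per 10000 for WT 1, 0.668 for WT 2 and 3.18 for Mat KO. No gene of the 184 was counted in all 3 libraries. In the test, 3 of the 184 passed the filter, Dnajc13, Hspd1 and Serpinh1, and 0 were called in either direction, with adjusted p-values of 0.729 to 0.995 in edgeR's quasi-likelihood test.

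For the lists closest to the endoplasmic reticulum members, raw counts are given in the order WT 1, WT 2, Mat KO, and they follow depth as well as level. The cofactors of BiP had 21, 0 and 6 counts over 11 genes, led by Manf, a secreted stress-induced cofactor, with 10, 0 and 0, and by Dnajc1, a membrane-bound partner of BiP, with 0, 0 and 6. Other disulfide isomerases and oxidases had 18, 0 and 1 counts over 13 genes, with Qsox1, a sulfhydryl oxidase, at 9, 0 and 0, and the enzymes and lectins of the calnexin cycle 7, 0 and 0 over 7 genes. Prolyl isomerases and collagen folding genes had 34, 1 and 0 counts over 10 genes. Of these counts Serpinh1, the collagen chaperone, gave 22, 1 and 0. The share of this list in WT 1, 18.3 (13.1 to 25.6), lay above the 3.74 that 0 counts allow in the Mat KO library if reads were independent. Subunits of the oligosaccharyltransferase had 23, 4 and 0 counts, the translocon and signal peptidase 12, 2 and 1, and genes of endoplasmic reticulum-associated degradation 18, 3 and 0, with the segregase gene Vcp at 5, 3 and 0. By share these 3 lists lay higher in WT 2, at 32.8, 16.4 and 24.6, than in WT 1, at 12.4, 6.46 and 9.69, with overlapping intervals. Sensors and transcription factors of the unfolded protein response had 15, 0 and 10 counts over 16 genes, or shares of 8.07 (4.89 to 13.3) for WT 1 and 12.5 (6.77 to 22.9) for Mat KO. The counts of WT 1 were mostly those of Atf4, the factor translated when the stress kinases act, with 12, 0 and 0, and the 10 of the Mat KO library were all those of Creb3l2, a membrane-bound factor of secretory cells, with 0, 0 and 10.

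In the cytosolic lists with counts in the Mat KO library, those counts came from 1 gene each. Hsp90aa1 and the Hsp90 cofactors had 41, 1 and 4 counts over 12 genes, with the inducible Hsp90 gene Hsp90aa1 at 8, 0 and 4 and the activator Ahsa1 at 8, 0 and 0. The list had a share of 22.1 (16.3 to 29.9) for WT 1 and 4.99 (1.94 to 12.8) for Mat KO. Cytosolic Hsp40 genes had 33, 0 and 14 counts over 16 genes, where all 14 of the Mat KO library came from Dnajc13, an endosomal member with 8, 0 and 14. The shares of the whole Hsp40 list in WT 1 and the Mat KO library, 17.8 (12.7 to 24.9) and 17.5 (10.4 to 29.3), had overlapping intervals. Cytosolic Hsp70 genes and cofactors other than Hspa8 had 8, 1 and 4 counts over 16 genes, or shares of 4.31, 8.20 and 4.99 with overlapping intervals. Ribosome-bound and small heat shock proteins had 34, 0 and 0 counts over 9 genes, with Hspb6, a small heat shock protein of muscle, at 12, 0 and 0. Chaperonin and prefoldin subunits had 12, 2 and 0 counts over 14 genes, heat shock factors 1, 0 and 0 over 4, and mitochondrial chaperones and proteases 26, 2 and 0 over 12, led by Hspd1, the mitochondrial chaperonin, with 14, 1 and 0. The mitochondrial list lay at shares of 14.0 (9.55 to 20.5) in WT 1 and 16.4 (4.50 to 59.6) in WT 2, and the chaperonin list at 6.46 (3.70 to 11.3) and 16.4 (4.50 to 59.6). None of the 15 lists had a gene counted in every library.

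**Figure D5:**
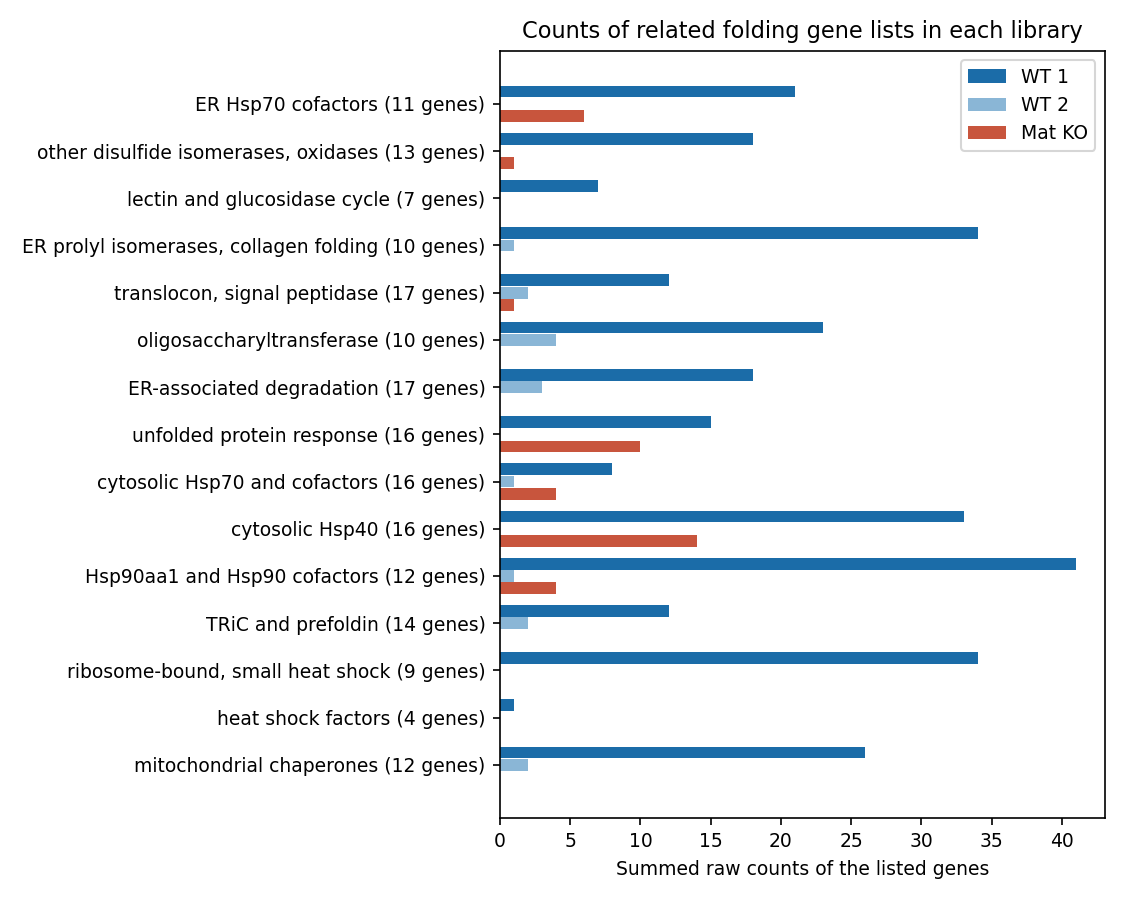
Summed raw counts (x axis) of 15 lists of related folding genes (rows, number of genes in brackets) by library (colours), not adjusted for depth. WT 1, the deepest for protein-coding genes, has the most counts in every list, and the Mat KO library has counts in 7 of the lists, at most 14 in the Hsp40 list.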

How the data were processed

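The authors deposited raw read counts for each Ensembl gene, with no normalization, in 3 files of 1 library each. Trimmomatic, HISAT2 2.1.0, HTSeq 0.11.2 and the build GRCm38 are named in the submitters' processing notes; no source used here states the annotation release or the strand setting. The 5 summary lines, which name no gene, entered neither library sizes nor tests; they held 84.9% (WT 1), 88.2% (WT 2) and 90.0% (Mat KO) of the reads, of which those on several genes were 33.5%, 74.3% and 66.1% of all reads. GENCODE M21 held 48349 of the 48795 identifiers.

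Shares are raw counts per 10000 nuclear protein-coding counts other than Lars2, with 95% Wilson intervals (SciPy 1.17.1). Ratios of libraries have exact conditional intervals. All genes were tested with edgeR 4.0.16 (R 4.3.3) using TMM factors, its quasi-likelihood test and Benjamini-Hochberg adjustment. Low genes were filtered by filterByExpr at a minimum count of 10 and a minimum total of 15, and the prior count was 2. Standard errors come from the size of the log2 fold change over the root of the F statistic. DESeq2 1.42.0, other scalings and filters, other denominators and leaving out each WT library were alternatives. The script was tested on simulated data. The members and lists were chosen with earlier results of these data known. The rule for named genes took all 10 members and up to 2 genes with the most counts of each list; Dnajc13, Hspd1 and Serpinh1 are also named as the listed genes tested, and genes overlapping Hsp90b1 and Hspa8 as such. Lars2 is named as part of the denominator and Ctrb1 as the most counted acinar gene.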

Additional observations from a re-analysis of the deposited data

How the results depend on the processing

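Under every scaling, filter and tool run, 0 genes were called; with a mean of at least 50 counts none of the members was tested. Other scalings moved the median of all tested genes and changed signs among Calr, Hspa5 and Hspa8, but not every gene moved with the median. With total counts alone and in DESeq2 the median rose while P4hb fell, from -3.66 to -4.48 and -6.44. Hsp90ab1 fell likewise, from -2.99 to -3.77 and -5.70. Calr, Hspa5 and Hspa8 lay at 0.44, 0.17 and 0.93 under size factors of the DESeq2 type in edgeR. Without the 4 most counted features in the library sizes they lay at 0.45, 0.18 and 1.17, and in DESeq2 at 0.50, 0.23 and 1.07. P4hb and Hsp90ab1 lay at -2.82 and -2.23 in the first of these settings and at -2.66 and -2.09 in the second. With total counts alone Calr lay at 0.04 and Hspa8 at 0.08, and with no filter Hspa8 lay at 0.14. The median of all tested genes moved from -0.25 to 0.75 with DESeq2-type size factors, 0.97 without the 4 most counted features, 1.04 in DESeq2, 0.07 with total counts alone and -0.69 with no filter. Relative to it, over the TMM fit and the first 3 of these, Calr lay at -0.20, -0.31, -0.52 and -0.54, Hspa5 at -0.34, -0.58, -0.78 and -0.81, and Hspa8 at 0.05, 0.17, 0.20 and 0.03, with no sign change. With no filter Calr and Hspa5 lay above the median, by 0.50 and 0.32. Without WT replicate 1, Calr lay at 0.41 and Hspa8 at 1.90, and without WT replicate 2 both lay at -1.03, while the medians of all tested genes were 2.68 and -0.90; relative to these Calr lay at -2.26 and -0.13 and Hspa8 at -0.77 and -0.13. Comparing 1 library with 1 gives values with no test. The negative values of P4hb and Hsp90ab1, without WT replicate 2 at -4.95 and -4.23, are fixed by their counts in WT 1 alone; without WT replicate 1 both have 0 counts in each library and no value. The summed share of the endoplasmic reticulum members per 10000 of all gene-assigned counts was 14.6 for WT 1, 0.334 for WT 2 and 3.18 for Mat KO. Overlap of the intervals was described on the protein-coding scale, where WT 2 held 8 counts, and does not show likeness. Outside the 4 most counted features the summed share was 45.0, 34.8 and 27.7. Without the most counted member of each library it was 33.4, 32.8 and 15.0. The cytosolic share was 6.35, 0.0418 and 2.22 of all gene-assigned counts and 19.6, 4.35 and 19.4 outside the 4 most counted features, and without the most counted member 10.2, 0 and 0. The cause of these shifts was not tested beyond the change of denominator or member itself. Depth limits WT 2 most, where a count of 0 allows a share of 24.6. No paired analysis was possible because the Mat KO label carries no replicate number and that group has 1 library.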
